A study of Ambystoma mexicanum with 15 samples.

Results

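Solute carriers are membrane proteins that move small molecules across cell and organelle membranes, and 157 of their genes were followed through spinal cord injury in the axolotl. The genes are those whose symbol in the array annotation starts with SLC and a digit. The families of transmitter uptake, vesicle loading and cation-chloride cotransport (SLC1A, SLC6A, SLC12A, SLC17A, SLC18A and SLC32A) and the genes SLC2A1, SLC2A2 and SLC13A3 were set aside. The 157 genes are part of 186 SLC genes and of 8639 named genes on the array. Of them, 154 are carriers by name, in 34 families, and 3 are named after a carrier (SLC2A4RG, SLC4A1AP and SLC7A6OS). Genes were picked by symbol, but the rule was set with earlier results of these data known. Each gene is represented by its brightest probe set, judged by the mean of the 15 arrays, and 19 genes had more than 1 probe set.

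Carriers work as uniporters, as cotransporters driven by the sodium or proton gradient, or as exchangers. In nervous tissue they supply neurons and glia with sugars, lactate, amino acids and metals, hold pH through bicarbonate and proton exchange, and pass glutamine from glia to neurons. Others sit inside the cell. They load mitochondria with nucleotides and cofactors, move nucleosides across the lysosomal membrane, or supply the Golgi apparatus with nucleotide sugars for glycan synthesis.

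The arrays held total RNA from spinal cord tissue of white axolotls (Ambystoma mexicanum), a salamander that regrows its cord after injury. The study asked how membrane depolarization bears on the response of ependymoglial cells, the cells that line the central canal, and the injected drug was ivermectin, which opens ligand-gated chloride channels. Each of the 5 groups had 3 arrays, and each array held tissue pooled from 10 animals with a stated age of 1 month. The groups were cord without injury, which the labels describe as mature, cord at 1, 3 and 7 days after a piece was cut out, and cord at 1 day after the same cut with ivermectin placed in the central canal just before it. The protocol names water with the dye Fast Green as the vehicle, but the labels do not state whether the 1 day arrays without drug came from injected animals. They also do not state how much neighbouring tissue was taken. In such bulk RNA, fewer cells of a type and less RNA per cell cannot be told apart.

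Values are log2 expression per probe set. Differences are log2 differences ± SE from limma with Benjamini-Hochberg adjustment over all 20035 probe sets (n = 3 arrays per group), and a gene is said to rise or fall where the adjusted p was under 0.05. Correlations across probe sets between arrays of 1 group lay between 0.997 and 0.999. The 157 genes spread widely in level: 24 read under the first quartile of the array (4.21 to 4.28) on all 15 arrays, and 108 read above it on all. Changes of such dim genes are less certain. The median SD between arrays of a group was 0.067 to 0.080 over the 157 genes.

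Composition markers moved with the groups. All 7 measured ependymoglial markers read above the first quartile in uninjured cord, and 4 rose at 1 day, 3 rose and 2 fell at 3 days and 6 rose at 7 days. All 14 measured skeletal muscle markers rose at 1 day, and 13 of 14 fell with ivermectin against 1 day without drug. Their summed level on the log2 scale was 16.09 to 16.12 in uninjured cord, 16.57 to 16.59 at 1 day, 16.70 to 16.72 at 3 days, 16.61 to 16.64 at 7 days and 16.11 to 16.13 with ivermectin. Of 7 epidermal markers, 7 fell at 3 days and 7 fell at 7 days. Of all probe sets, 25.1% rose and 28.8% fell at 1 day, 29.8% and 30.2% at 3 days, and 28.8% and 28.9% at 7 days. With ivermectin against 1 day without drug, 29.6% rose and 25.4% fell. The marker counts were not tested against these shares. Poly-A control RNA, added before labelling, read 7.54 in uninjured cord, 8.08, 8.33 and 7.94 at 1, 3 and 7 days, and 7.43 with ivermectin. The part of these shifts in the carrier results was not tested.

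About as many carriers rose as fell after injury. At 1 day against uninjured, 42 of the 157 rose and 39 fell, that is 26.8% and 24.8%, against 25.1% and 28.8% of all probe sets. By 3 days 51 had risen and 48 had fallen (32.5% and 30.6%, against 29.8% and 30.2%). By 7 days 43 had risen and 55 had fallen (27.4% and 35%, against 28.8% and 28.9%). These shares lie near the background at every time but for the falls at 7 days, whose excess was not tested. The 3 comparisons share the uninjured arrays, so their values stand side by side and are not independent.

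The median log2 change over the 157 genes was -0.01 at 1 day, 0.02 at 3 days and -0.04 at 7 days, where all probe sets had 0.00, 0.02 and 0.01. Changes of at least 1 on the log2 scale were fewer. They were 5 rises and 2 falls at 1 day (4.46% of the carriers against 7.12% of all probe sets), 13 and 7 at 3 days (12.7% against 10.9%) and 9 and 9 at 7 days (11.5% against 10.5%).

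**Figure D1:**
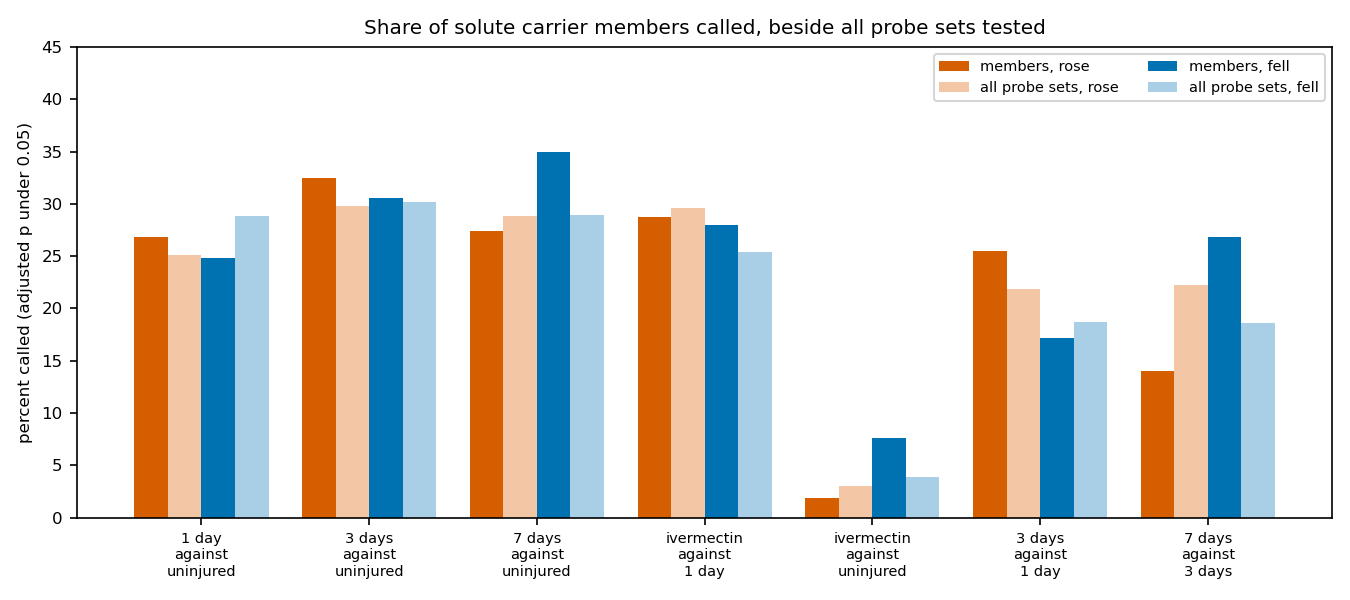
Percent of genes called at adjusted p under 0.05 in each of the 7 comparisons, as bars from 0; orange bars rose and blue bars fell, dark bars are the 157 carriers and pale bars all 20035 probe sets. Falls at 7 days (35% against 28.9%) and the change from 3 to 7 days (14% against 22.2% for rises, 26.8% against 18.6% for falls) show the widest gaps, and few genes were called for ivermectin against uninjured cord.

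Over the 3 times the calls of the carriers made many patterns, and only some are counted here. Of the 157, 123 changed at 1 time or more. Of these, 24 rose at all 3 times, 27 fell at all 3 times, 9 rose at 1 day and were then below uninjured cord at both later times, and 11 rose at 3 days only. Among the 4 groups without drug, the highest mean of the 123 lay in uninjured cord for 43, at 3 days for 42, at 1 day for 20 and at 7 days for 18. Shares of these patterns and peaks over all probe sets were not computed, so they cannot be called particular to carriers. Between times, 40 rose and 27 fell from 1 to 3 days (25.5% and 17.2%, against 21.9% and 18.7% of all probe sets). From 3 to 7 days 22 rose and 42 fell (14% and 26.8%, against 22.2% and 18.6%). The gap between these shares was not tested. Both comparisons use the 3 day arrays, so they are not independent. The poly-A control differed by 0.24 from 1 to 3 days and by -0.39 from 3 to 7 days, and its part was not tested.

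**Figure D2:**
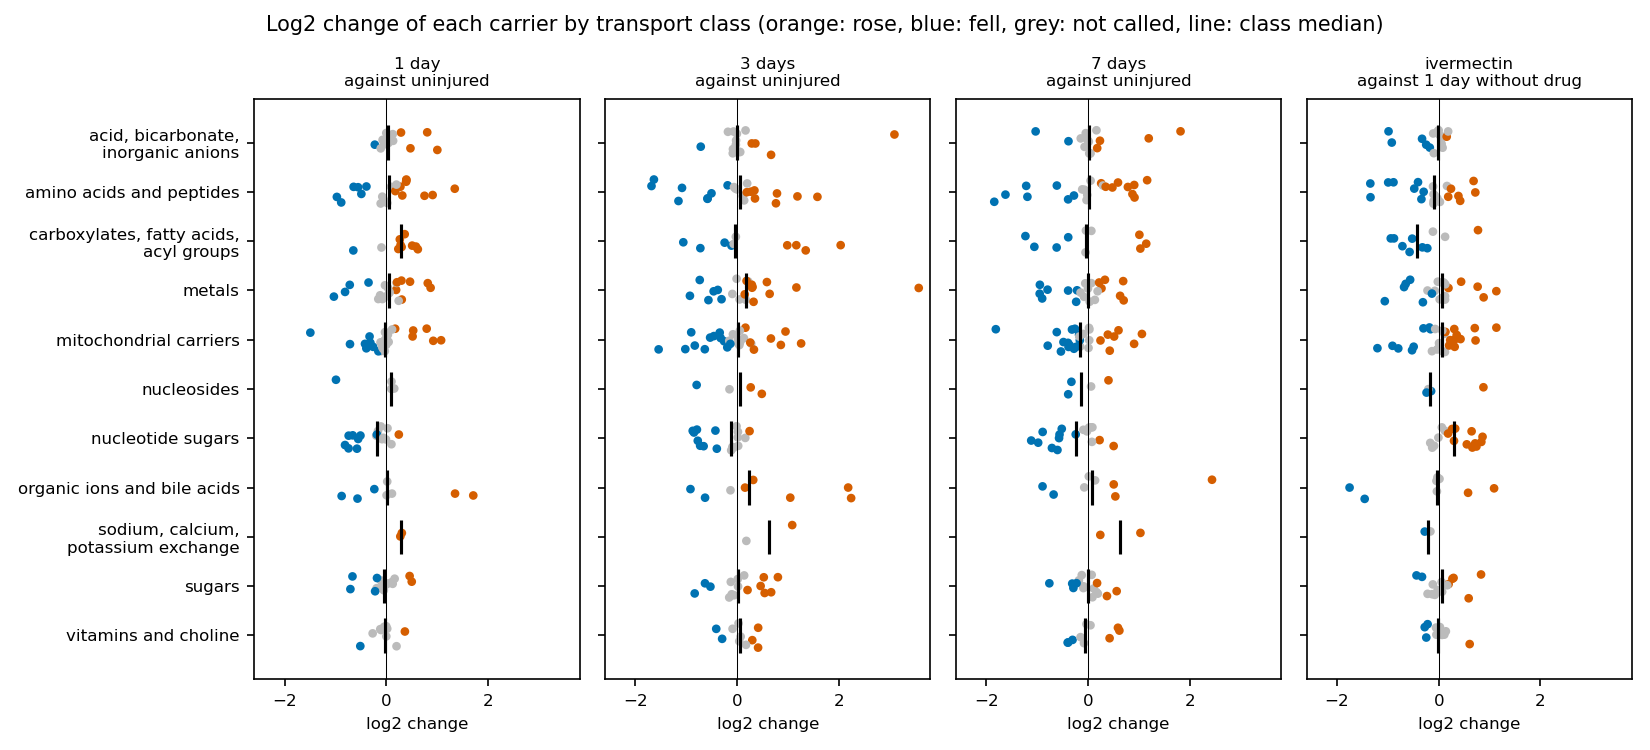
Log2 change of each carrier by transport class at 1, 3 and 7 days against uninjured cord and for ivermectin against 1 day without drug; each point is 1 gene, orange rose, blue fell, grey was not called, and the black line is the class median. Single carriers with large changes stand out in most classes, with 3.57 for SLC39A8 among metals and 3.09 for SLC4A4 among acid and anion carriers at 3 days. Of 17 nucleotide sugar carriers, 8 fell at 1 day and 11 rose with ivermectin, where 28.8% and 29.6% of all probe sets did. Both counts use the same 1 day arrays, so they are not independent. Against uninjured cord, 1 of the 17 rose and 0 fell with ivermectin, where 3.02% and 3.93% of all probe sets did.

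Among 21 metal carriers, 7 rose and 4 fell at 1 day, 10 rose and 6 fell at 3 days, and 6 rose and 7 fell at 7 days. Over all probe sets, 25.1% rose and 28.8% fell at 1 day, 29.8% and 30.2% at 3 days, and 28.8% and 28.9% at 7 days. No count of a class or gene list in this report was tested against these shares. SLC39A8, which takes zinc and manganese into cells, had the largest rise of all 157 genes. It read 6.73, 6.79 and 6.54 in uninjured cord, 6.58, 6.87 and 6.79 at 1 day, 10.28, 10.25 and 10.24 at 3 days, 6.84, 6.92 and 6.95 at 7 days, and 6.91, 6.76 and 6.96 with ivermectin. The 3 day arrays stand far above all others, which overlap or nearly so. At 3 days it was 11.9-fold above uninjured cord (3.57 ± 0.08; adjusted p = 1.8e-14). From 3 to 7 days it fell by 3.35 on the log2 scale. Its small rise at 7 days (0.22 ± 0.08; adjusted p = 0.0287) was not called without uninjured replicate 3 (0.15; adjusted p = 0.148), without 7 day replicate 2 or 3 (adjusted p = 0.0691 and 0.0873), or with cyclic loess scaling (adjusted p = 0.0544).

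SLC30A1, which exports zinc across the plasma membrane, took a different course over time. Its values were 9.54, 9.60 and 9.62 in uninjured cord, 10.35, 10.49 and 10.52 at 1 day, 9.15, 9.10 and 9.12 at 3 days, 8.67, 8.64 and 8.60 at 7 days, and 9.45, 9.41 and 9.33 with ivermectin. The 1 day arrays were the highest and the 7 day arrays the lowest, with no overlap between groups. The change was 0.87 ± 0.05 at 1 day (adjusted p = 2.81e-09), -0.46 ± 0.05 at 3 days and -0.95 ± 0.05 at 7 days (adjusted p = 6.25e-10).

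Metal carriers that fell at all 3 times included SLC39A7, which releases zinc from the endoplasmic reticulum, and SLC31A1, the copper importer. SLC39A7 read 10.76 to 10.83 in uninjured cord, 9.75 to 9.78 at 1 day, 10.21 to 10.26 at 3 days, 9.86 to 9.93 at 7 days and 10.87 to 10.93 with ivermectin. It fell by 1.03 on the log2 scale at 1 day (adjusted p = 2.99e-11), and its second probe set fell by 1.49. SLC31A1 fell by 0.81, 0.74 and 0.95 on the log2 scale at 1, 3 and 7 days (SE 0.05; adjusted p of at most 1.72e-09). SLC30A9, a zinc transporter of mitochondria, fell by 0.72, 0.93 and 0.80 on the log2 scale (SE 0.12). The magnesium carrier SLC41A1 rose instead, by 0.81 ± 0.08, 1.16 ± 0.08 and 0.69 ± 0.08. SLC11A2, which imports iron, read 3.15 to 3.52 over all arrays, below the first quartile, and was not called at any time. Of 8 measured genes of iron and heme handling, 5 rose and 0 fell at 1 day, among them the heme oxygenase HMOX1 (1.38) and the ferritin heavy chain FTH1 (0.15). At 3 days 4 rose and 1 fell (STEAP3), and at 7 days 5 rose and 1 fell (ALAS1). HMOX1 was not called at 3 days.

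Among 15 carriers of acid, bicarbonate and other inorganic anions, 4 rose and 1 fell at 1 day, 4 rose and 1 fell at 3 days, and 4 rose and 2 fell at 7 days. Of all probe sets, 25.1%, 29.8% and 28.8% rose and 28.8%, 30.2% and 28.9% fell at these times. The class is dim, with a median level of 3.59 over its genes, under the first quartile of the array. For its dim genes, the lack of a call does not show the lack of a change. SLC4A4, which moves sodium and bicarbonate together and in mammals sits in astrocytes and kidney tubules, had the second largest rise of the 157 genes. It read 5.99, 6.05 and 6.17 in uninjured cord, 6.49, 6.58 and 6.56 at 1 day, 9.18, 9.14 and 9.17 at 3 days, 7.84, 7.93 and 7.91 at 7 days, and 6.32, 6.20 and 6.13 with ivermectin. The groups without drug do not overlap, and 3 days is the highest. At 3 days it was 8.53-fold above uninjured cord (3.09 ± 0.06; adjusted p = 3.85e-15), and at 7 days 3.53-fold (1.82 ± 0.06). Its 2 other probe sets rose less at 3 days (0.79 ± 0.10 and 0.45 ± 0.09).

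SLC20A1, a sodium-coupled phosphate importer, shared the early rise of SLC30A1. It read 11.24, 11.34 and 11.36 in uninjured cord, 12.12, 12.09 and 12.12 at 1 day, 10.61, 10.57 and 10.61 at 3 days, 10.34, 10.25 and 10.25 at 7 days, and 11.16, 11.12 and 11.09 with ivermectin. No array of the 1 day group overlapped another group, and both later groups lay below uninjured cord. The change was 0.80 ± 0.05 at 1 day (adjusted p = 1.37e-09), -0.72 ± 0.05 at 3 days and -1.03 ± 0.05 at 7 days (adjusted p = 4.51e-11). The chloride and bicarbonate exchanger SLC26A4 rose at all 3 times, by 1.00 ± 0.10, 0.67 ± 0.10 and 1.19 ± 0.10. SLC9A7, a proton exchanger of the Golgi, fell by 0.23 on the log2 scale at 1 day, a call that was lost in 8 of the alternatives, and by 0.38 at 7 days.

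Among 22 carriers of amino acids and peptides, 9 rose and 6 fell at 1 day, 8 rose and 8 fell at 3 days, and 9 rose and 7 fell at 7 days. Rises over all probe sets were 25.1%, 29.8% and 28.8% at these times, and falls were 28.8%, 30.2% and 28.9%. The class held the largest falls of the 3 and 7 day comparisons. SLC7A3, an importer of arginine and lysine, read 10.79, 10.74 and 10.75 in uninjured cord, 11.47, 11.55 and 11.50 at 1 day, 9.15, 9.13 and 9.09 at 3 days, 8.92, 8.90 and 8.94 at 7 days, and 10.18, 10.15 and 10.18 with ivermectin. The 5 groups do not overlap. It rose by 0.75 ± 0.04 at 1 day (adjusted p = 8.55e-10), and was 3.11-fold below uninjured cord at 3 days and 3.59-fold below it at 7 days (-1.84 ± 0.04; adjusted p = 2.54e-14).

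SLC38A2, a sodium-coupled importer of small neutral amino acids, turned the same way. Its values were 8.73, 8.91 and 8.81 in uninjured cord, 9.03, 9.13 and 9.11 at 1 day, 6.88, 7.24 and 7.27 at 3 days, 7.20, 7.22 and 7.16 at 7 days, and 8.16, 8.09 and 8.03 with ivermectin. The 3 and 7 day arrays overlap each other and lie far below the rest. It was 3.22-fold below uninjured cord at 3 days (-1.69 ± 0.09; adjusted p = 1.9e-10). The rise at 1 day was small (0.28 ± 0.09; adjusted p = 0.0137), and without uninjured replicate 1 it was not called (0.23; adjusted p = 0.0597).

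Other amino acid carriers fell at all 3 times. SLC7A5, the light chain that imports large neutral amino acids, fell by 0.89, 1.09 and 1.19 on the log2 scale (SE 0.06), and its heavy chain partner SLC3A2 by 0.49, 0.58 and 0.28 (SE 0.04). The arginine and lysine importer SLC7A1 read 5.57 to 5.70 in uninjured cord and 4.27 to 4.86 on the 9 arrays after injury without drug, with no overlap. It fell by 0.97, 1.16 and 1.21 on the log2 scale (SE 0.11; adjusted p of at most 3.09e-06). Of 7 measured genes of the amino acid response, 0 rose and 5 fell at each of the 3 times (ATF4, DDIT3, PSAT1, PHGDH and SESN2), where 28.8% to 30.2% of all probe sets fell. Neither this count nor a link to the carriers was tested.

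Rises in this class were led by SLC38A3, which in mammals releases glutamine from astrocytes. It read 6.99, 7.01 and 6.84 in uninjured cord, 7.27, 7.37 and 7.38 at 1 day, 8.59, 8.48 and 8.51 at 3 days, 8.23, 8.01 and 8.11 at 7 days, and 7.05, 7.13 and 6.95 with ivermectin. It was highest at 3 days and still raised at 7 days (1.58 ± 0.07; adjusted p = 3.3e-11, and 1.16 ± 0.07), and its 2 other probe sets rose at 3 days too (1.28 and 0.66). SLC7A10, an exchanger of small neutral amino acids including D-serine, was highest at 1 day, at 5.96 to 6.11 against 4.57 to 4.85 in uninjured cord (1.34 ± 0.08; adjusted p = 1.92e-09), and stayed raised by 0.78 ± 0.08 and 0.92 ± 0.08. The arginine and leucine exchanger SLC7A7 rose by 0.91 ± 0.12, 1.18 ± 0.12 and 0.48 ± 0.12. SLC7A11, which exchanges cystine for glutamate, rose by 0.39 ± 0.06, 0.76 ± 0.06 and 0.87 ± 0.06, and the groups without drug did not overlap uninjured cord.

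**Figure D3:**
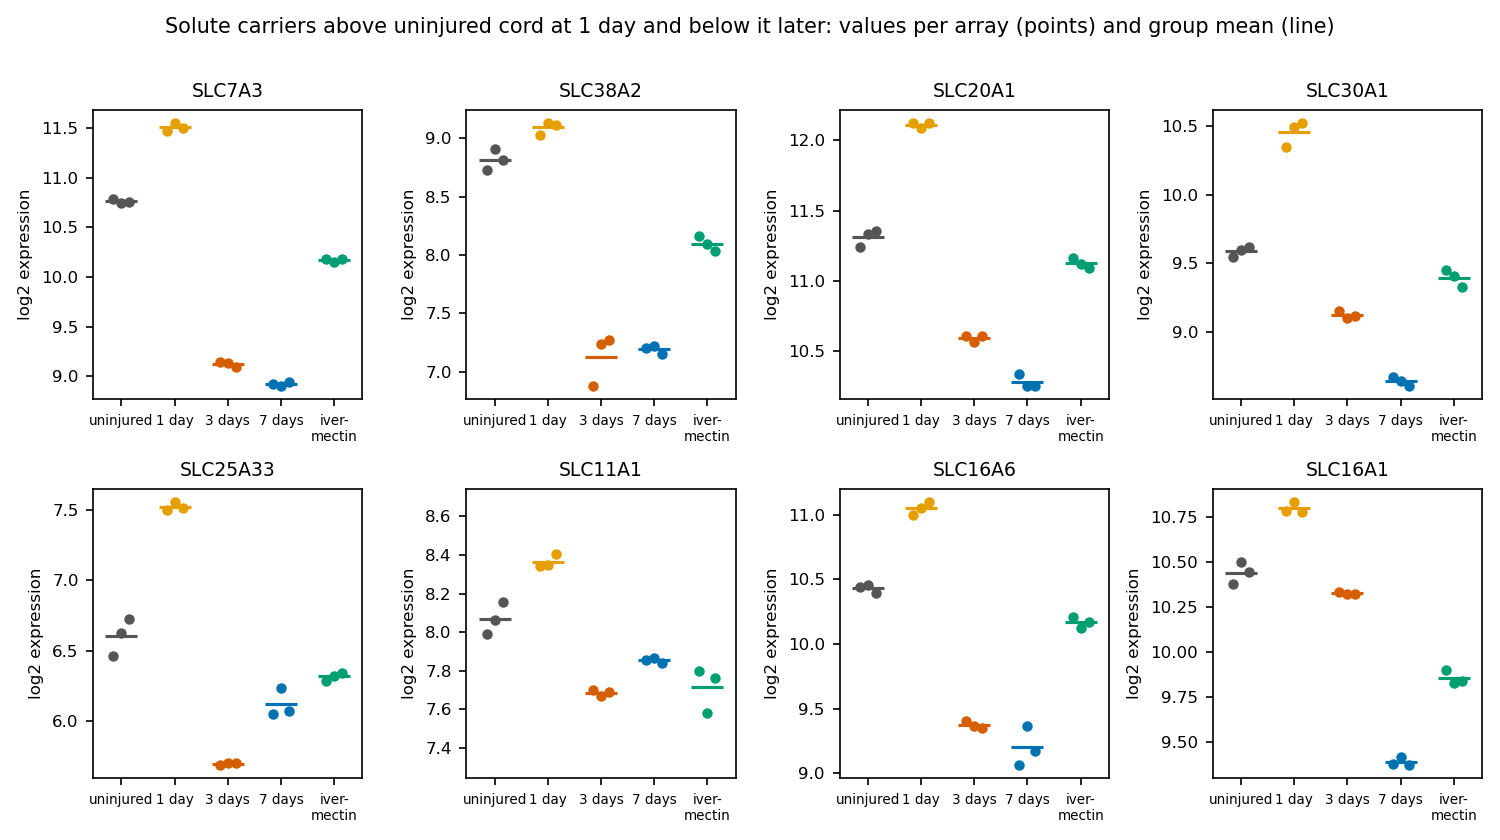
Values per array on the log2 scale (y axis, own scale per panel) for 8 carriers in the 5 groups; points are arrays and lines group means. The 8 were picked from carriers called above uninjured cord at 1 day and below it later, which favours a separation at these times. In all 8 the 1 day arrays lie above every uninjured array and the 7 day arrays below. The ivermectin arrays lie below every uninjured array. The share of all probe sets with such separations was not computed. SLC11A1 was added after its values were seen.

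Among 10 carriers of carboxylates, fatty acids and acyl groups, 8 rose and 1 fell at 1 day, 4 rose and 4 fell at 3 days, and 3 rose and 4 fell at 7 days. Over all probe sets 25.1%, 29.8% and 28.8% rose and 28.8%, 30.2% and 28.9% fell at these times. The difference of the class from these shares was not tested. The 8 rises include SLC13A2 and SLC27A1, the latter named after its values were seen. Both read below the first quartile on all uninjured and all 1 day arrays, so their 1 day rises are less certain. SLC13A2, an importer of citrate and other dicarboxylates known from kidney and gut, read 3.21, 3.28 and 3.10 in uninjured cord, 3.42, 3.51 and 3.55 at 1 day, 5.06, 5.26 and 5.37 at 3 days, 4.36, 4.11 and 4.15 at 7 days, and 3.20, 3.11 and 3.21 with ivermectin. Only the 3 day arrays lie clearly above the first quartile of the array. The rise at 3 days was 2.03 ± 0.08 (adjusted p = 1.46e-11). Among 6 measured kidney tubule markers, CUBN, LRP2 and KL rose at 3 days (0.19, 0.90 and 0.76) while AQP1, UMOD and ASS1 fell, and the list's summed level on the log2 scale was 11.48 to 11.56 at 3 days against 12.32 to 12.35 in uninjured cord. LRP2 and KL read below the first quartile in uninjured cord, and the part of kidney-type cells was not tested.

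SLC13A4, a sulfate carrier, rose by 0.58 ± 0.10, 1.35 ± 0.10 and 1.15 ± 0.10. SLC16A9, linked to carnitine transport in humans, rose by 0.51 ± 0.05, 1.16 ± 0.05 and 1.03 ± 0.05. The lactate carrier SLC16A1 read 10.38, 10.50 and 10.45 in uninjured cord, 10.78, 10.84 and 10.78 at 1 day, 10.33, 10.32 and 10.32 at 3 days, 9.37, 9.41 and 9.37 at 7 days, and 9.90, 9.83 and 9.84 with ivermectin. It was highest at 1 day (0.36 ± 0.04) and lowest at 7 days (-1.05 ± 0.04; adjusted p = 2.27e-11). Its fall at 3 days (-0.11 ± 0.04; adjusted p = 0.0385) was lost with the replicate block, with the arrays of the 2 groups alone, with cyclic loess or median centring and without 1 array in 5 of 6 cases, and its second probe set, dimmer by far, fell at 3 days only (-0.13, -0.18 and -0.03 at the 3 times).

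SLC16A6, which in zebrafish exports ketone bodies from the liver, rose by 0.62 ± 0.06 at 1 day and fell by 1.06 and 1.23 on the log2 scale at 3 and 7 days. Of its 3 other probe sets at 1 day, 1 fell (-0.19) and the others were at -0.09 and -0.00, so the early rise rests on 1 probe set of 4. When the probe sets of a gene were averaged, the 1 day rise was not called for SLC16A6 (0.08; adjusted p = 0.188) or SLC16A1 (0.11; adjusted p = 0.0588). All 4 probe sets of SLC16A6 fell at both later times (-1.06 to -1.62 at 3 days, -1.23 to -1.67 at 7 days).

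Of 8 carriers of organic ions and bile acids, 2 rose and 3 fell at 1 day, 5 rose and 2 fell at 3 days, and 3 rose and 2 fell at 7 days. The shares of all probe sets that rose were 25.1%, 29.8% and 28.8%, and 28.8%, 30.2% and 28.9% fell. SLC22A3, which clears monoamines and other organic cations, was the carrier with the most lasting large rise. It read 4.62, 4.42 and 4.53 in uninjured cord, 6.11, 6.29 and 6.30 at 1 day, 6.69, 6.83 and 6.77 at 3 days, 6.95, 6.97 and 6.97 at 7 days, and 4.61, 4.33 and 4.50 with ivermectin. Values were higher at each later time, and the ivermectin arrays overlap those of uninjured cord. The rise was 1.71 ± 0.08 at 1 day, 2.24 ± 0.08 at 3 days and 2.44 ± 0.08 at 7 days, when it was 5.42-fold above uninjured cord (adjusted p = 8.76e-13).

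SLC10A4, a relative of the bile acid carriers found on synaptic vesicles of cholinergic and monoaminergic neurons in rodents, rose and came back down. Its values were 5.85, 5.91 and 5.84 in uninjured cord, 7.21, 7.24 and 7.21 at 1 day, 8.04, 8.08 and 8.04 at 3 days, 6.47, 6.22 and 6.43 at 7 days, and 5.89, 5.78 and 5.61 with ivermectin. The 3 day arrays were highest, at 4.54-fold above uninjured cord (2.18 ± 0.07; adjusted p = 1.1e-12). Of 9 measured neuronal markers, 6 rose at 1 day, 7 rose and 1 fell at 3 days and 6 rose at 7 days, and their summed level on the log2 scale was 11.21 to 11.28 in uninjured cord, 12.41 to 12.42 at 3 days and 12.27 to 12.33 at 7 days. Rises over all probe sets were 25.1%, 29.8% and 28.8% at the 3 times. The part of neuronal RNA in the SLC10A4 values was not tested.

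SLC22A7, an organic anion carrier, rose at 3 days (1.04 ± 0.10) and 7 days (0.54 ± 0.10) from uninjured arrays at 3.27. It read below the first quartile on 14 of 15 arrays, among them 2 of 3 at 3 days and all 3 at 7 days. Both rises are therefore less certain. SLC10A7, a relative of the bile acid carriers that is needed for calcium and glycan handling, fell by 0.88, 0.92 and 0.89 on the log2 scale (SE 0.06). SLC10A3, an orphan of the same family, fell by 0.24, 0.63 and 0.68 (SE 0.05).

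**Figure D4:**
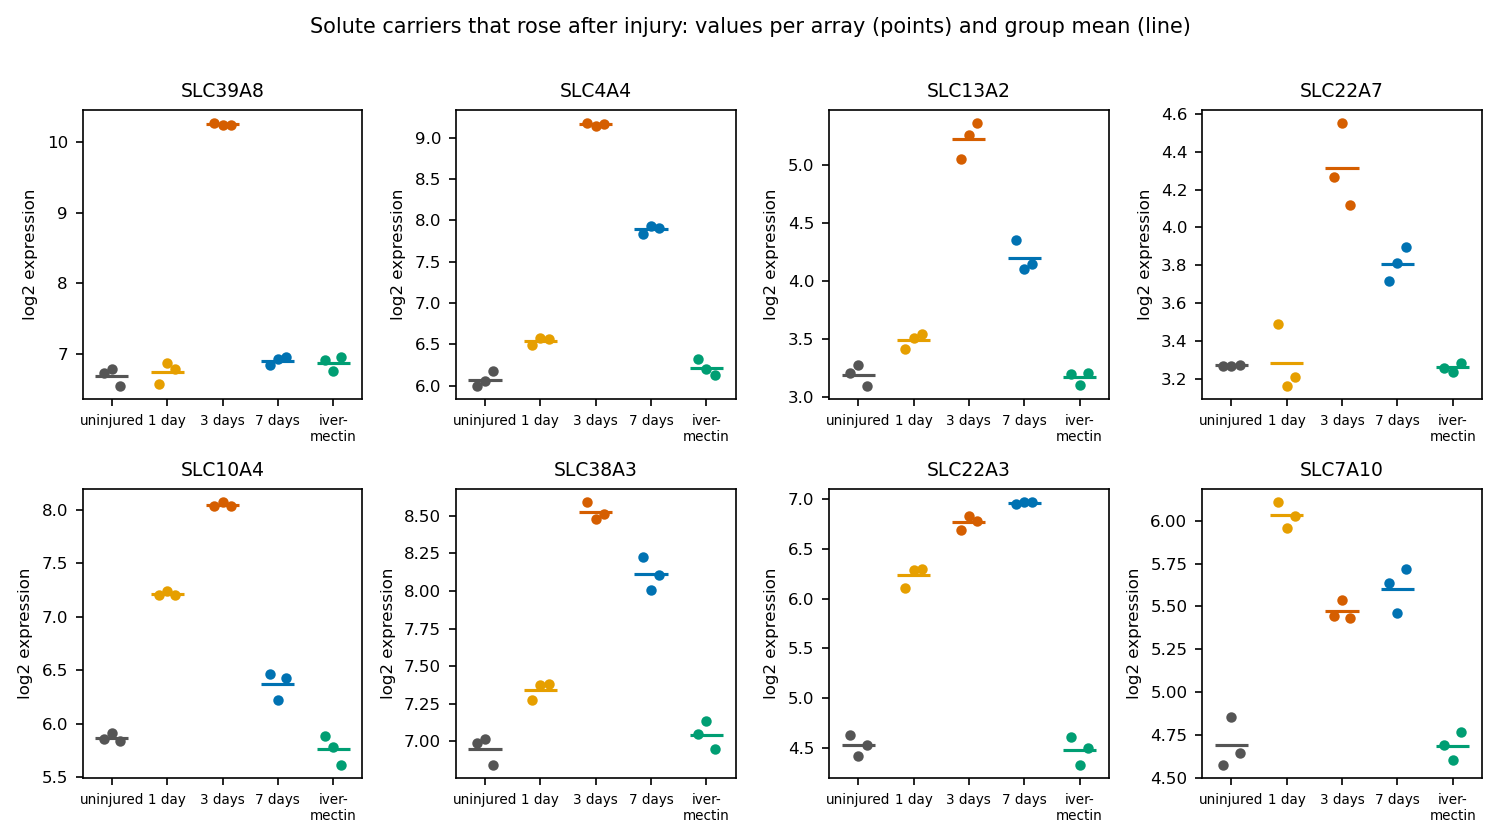
Values per array on the log2 scale (y axis, own scale per panel) for 8 carriers that rose after injury; points are arrays and lines group means. SLC39A8 stands out at 3 days only, SLC4A4 and SLC10A4 are highest at 3 days, and SLC22A3 keeps its rise to 7 days.

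Among 29 mitochondrial carriers, 6 rose and 9 fell at 1 day, 7 rose and 12 fell at 3 days, and 7 rose and 15 fell at 7 days. Rises over all probe sets were 25.1%, 29.8% and 28.8% and falls were 28.8%, 30.2% and 28.9%. The difference of the class from them was not tested. SLC25A32, which brings folate or the cofactor FAD into mitochondria, fell most. It read 5.50, 5.95 and 6.0 in uninjured cord, 4.49, 4.46 and 4.01 at 1 day, 4.07, 4.21 and 4.53 at 3 days, 3.98, 4.0 and 4.04 at 7 days, and 5.29, 5.51 and 5.55 with ivermectin. All 9 arrays after injury without drug lie below all uninjured arrays, and several of them lie below the first quartile. It fell by 1.5, 1.55 and 1.81 on the log2 scale (SE 0.15; adjusted p of at most 5.79e-07).

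SLC25A33, a pyrimidine nucleotide carrier, read 6.46, 6.62 and 6.72 in uninjured cord, 7.50, 7.56 and 7.51 at 1 day, 5.69, 5.70 and 5.70 at 3 days, 6.05, 6.23 and 6.07 at 7 days, and 6.29, 6.32 and 6.34 with ivermectin. It was above uninjured cord at 1 day (0.92 ± 0.06) and below it at 3 days (-0.90 ± 0.06; adjusted p = 8.92e-09) and 7 days (-0.48 ± 0.06). The changes of its second probe set were 0.40, -0.21 and -0.12, the last not called. SLC25A46, an outer membrane protein that shapes mitochondria, rose by 1.08 ± 0.06, 1.26 ± 0.06 and 1.06 ± 0.06. SLC25A29, a carrier of basic amino acids, fell by 0.40, 1.02 and 0.53 on the log2 scale (SE 0.06). The ADP and ATP exchanger SLC25A5, the brightest of the 157 genes, read 13.69 to 13.84 on all arrays and was not called in any comparison. Its paralog SLC25A4, named after its values were seen, rose by 0.51, 0.66 and 0.39 (SE 0.04). The outer membrane pores VDAC1, VDAC2 and VDAC3 rose at all 3 times, by 0.12, 0.25 and 0.22 for VDAC1.

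SLC25A37, which imports iron into mitochondria of cells that make heme, read 4.75, 4.85 and 5.06 in uninjured cord, 5.66, 5.64 and 5.73 at 1 day, 5.92, 5.60 and 5.71 at 3 days, 4.45, 4.49 and 4.54 at 7 days, and 4.84, 4.78 and 4.69 with ivermectin. It rose by 0.79 ± 0.08 at 1 day and 0.86 ± 0.08 at 3 days and was below uninjured cord at 7 days (-0.39 ± 0.08; adjusted p = 0.000904). Of 7 measured red cell markers, 5 rose and 0 fell at 1 day, 6 rose and 0 fell at 3 days, and 2 rose and 2 fell at 7 days. Their summed level on the log2 scale was 9.69 to 9.77 in uninjured cord, 10.96 to 10.97 at 1 day, 11.01 to 11.08 at 3 days, 10.01 to 10.07 at 7 days and 9.51 to 9.56 with ivermectin. Rises over all probe sets were 25.1%, 29.8% and 28.8% at the 3 times, and falls were 28.8%, 30.2% and 28.9%. ALAS2, the first enzyme of heme synthesis in red cells, changed by 1.62, 1.54 and -0.57. The other marker that fell at 7 days was NFE2, while SPTB and RHAG rose then. SLC4A1, the anion exchanger of the red cell membrane, rose by 0.29 ± 0.08, 0.29 ± 0.08 and 0.24 ± 0.08, and the last call was lost without uninjured replicate 2 (0.18; adjusted p = 0.0962) or 7 day replicate 3 (0.16; adjusted p = 0.115). The part of red cells in these values was not tested.

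Of 17 nucleotide sugar carriers, 1 rose and 8 fell at 1 day, 1 rose and 8 fell at 3 days, and 2 rose and 9 fell at 7 days, with medians of -0.19, -0.12 and -0.24. The class holds all SLC35 genes by family number, whatever their substrate. Over all probe sets 25.1%, 29.8% and 28.8% rose and 28.8%, 30.2% and 28.9% fell. The difference of the class from them was not tested. SLC35B4, which carries UDP-xylose, read 6.45, 6.67 and 6.76 in uninjured cord, 5.89, 5.92 and 6.07 at 1 day, 5.82, 5.66 and 5.78 at 3 days, 5.50, 5.45 and 5.58 at 7 days, and 6.70, 6.65 and 6.76 with ivermectin. The arrays after injury without drug lie below all others, and the change at 7 days was -1.12 ± 0.08 (adjusted p = 7.65e-09).

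The same held for the GDP-fucose carrier SLC35C1, at 9.56 to 9.63 in uninjured cord and 8.58 to 8.90 after injury without drug, which fell by 0.74, 0.78 and 0.98 on the log2 scale (SE 0.06). SLC35A3, a carrier of UDP-N-acetylglucosamine, fell by 0.74, 0.79 and 0.71 (SE 0.08), and the UDP-galactose carrier SLC35A2 by 0.81, 0.43 and 0.60 (SE 0.11). SLC35B3, which carries the sulfate donor for glycans, fell by 0.51, 0.85 and 0.56 (SE 0.06), whereas its dimmer second probe set read 0.04, -0.02 and 0.04. SLC35D1, a carrier of UDP-glucuronic acid, fell by 0.66 and 0.89 at 3 and 7 days (SE 0.07), and its small fall at 1 day (-0.19; adjusted p = 0.0352) was lost with cyclic loess, with median centring and without any 1 of 5 arrays.

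**Figure D5:**
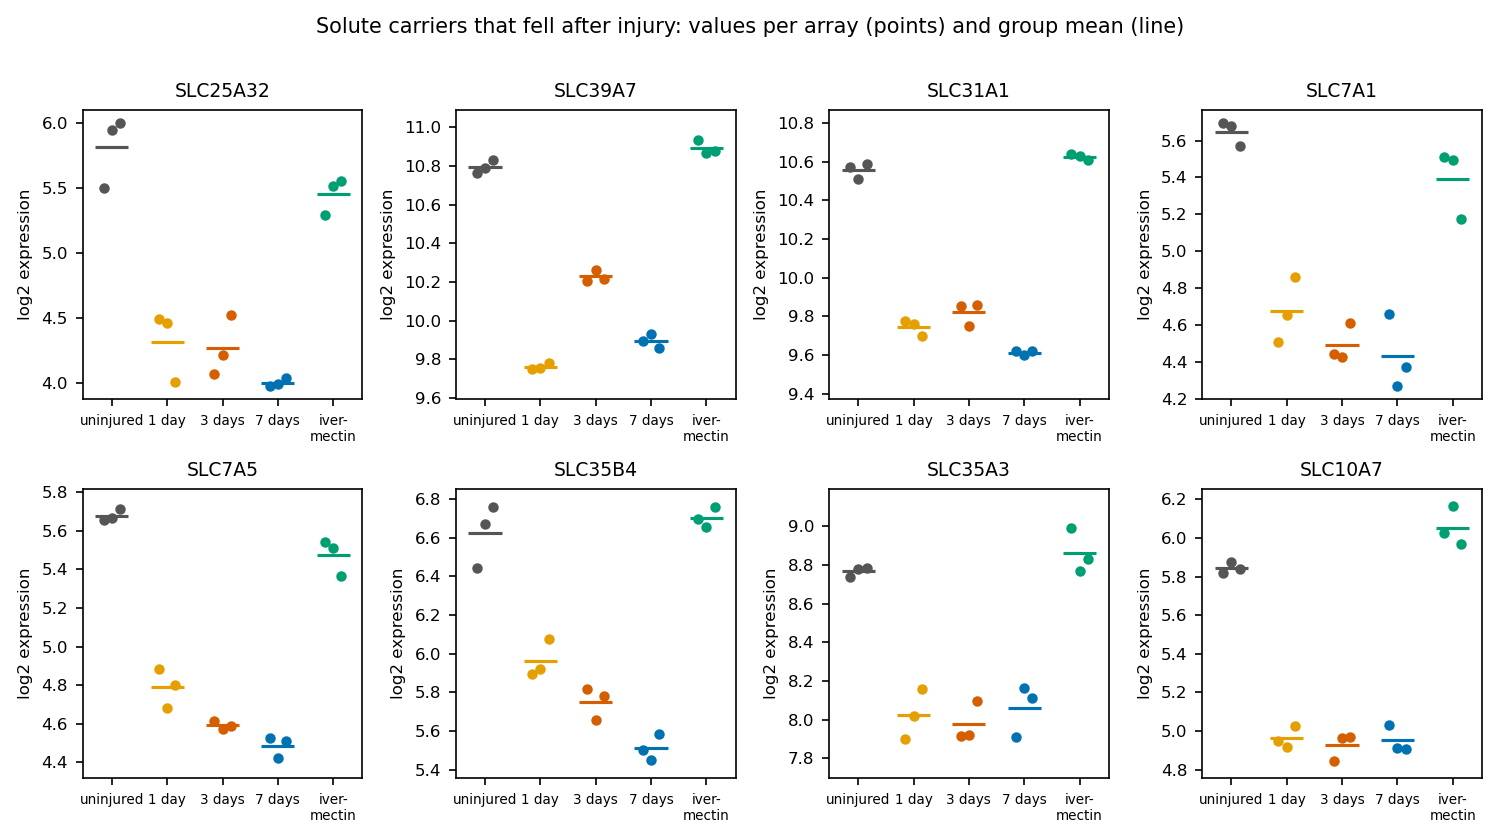
Values per array on the log2 scale (y axis, own scale per panel) for 8 carriers that fell at all 3 times; points are arrays and lines group means. In each panel the 9 arrays after injury without drug lie below all uninjured and all ivermectin arrays. The 8 were picked from carriers named for large changes without overlap between arrays, which favours such a separation. It does not hold for every carrier that fell at all 3 times. For SLC10A3 the ivermectin arrays (7.99 to 8.12) overlap the 1 day arrays (7.97 to 8.13).

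Among 16 carriers of the sugar families, 2 rose and 4 fell at 1 day, 6 rose and 3 fell at 3 days, and 3 rose and 4 fell at 7 days. Of all probe sets, 25.1%, 29.8% and 28.8% rose and 28.8%, 30.2% and 28.9% fell at these times. Classes follow the family number, so these 16 hold the choline carrier SLC5A7, named after its values were seen, a dim gene that rose at 3 and 7 days (0.20 ± 0.06 and 0.18 ± 0.06). The fructose carrier SLC2A5 read 5.22 to 5.55 in uninjured cord and 4.34 to 5.04 after injury without drug, and it fell by 0.71, 0.84 and 0.76 on the log2 scale (SE 0.15). SLC2A8, a hexose carrier of internal membranes, fell by 0.67, 0.53 and 0.31 (SE 0.11), and the last call was lost when any of 4 arrays was left out. SLC2A11 was raised at 3 days only, at 5.46 to 5.83 against 4.71 to 5.02 in uninjured cord (0.80 ± 0.10; adjusted p = 3.08e-06), while the urate carrier SLC2A9 fell at 3 days by 0.63 and at 7 days by 0.29 (SE 0.06). SLC37A2, a sugar phosphate exchanger and the brightest of the class, read 8.74 to 9.02 on all arrays and was not called.

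Nucleoside carriers moved apart. SLC29A3, which works in lysosomes, read 5.21 to 5.32 in uninjured cord and 4.27 to 4.28 at 1 day, and it fell by 0.99, 0.80 and 0.39 on the log2 scale (SE 0.08). SLC29A1, of the plasma membrane, rose at 3 and 7 days (0.48 ± 0.05 and 0.40 ± 0.05). SLC29A2 fell at 7 days only among these times (-0.33 ± 0.09), and SLC29A4, which also carries monoamines, rose at 3 days only (0.27 ± 0.09), a call lost without uninjured replicate 2 (0.19; adjusted p = 0.0840).

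Of 10 vitamin and choline carriers, 1 rose and 1 fell at 1 day, 3 rose and 2 fell at 3 days, and 3 rose and 3 fell at 7 days. The shares of all probe sets that rose were 25.1%, 29.8% and 28.8%, and 28.8%, 30.2% and 28.9% fell. The folate carrier SLC19A1 was lower at each time (-0.51, -0.30 and -0.30, SE 0.10), with the last 2 calls lost, among other settings, without uninjured replicate 3 (adjusted p = 0.139 and 0.124), and the proton-coupled folate carrier SLC46A1 rose at 7 days only (0.59 ± 0.08). The choline transporter-like SLC44A2 rose at each time (0.36, 0.41 and 0.43, SE 0.08), and SLC44A3 at 3 and 7 days (0.41 and 0.62, SE 0.08). Both measured potassium-dependent sodium and calcium exchangers rose: SLC24A2 by 0.27, 1.08 and 1.03 (SE 0.09), its 1 day call being lost with the arrays of the 2 groups alone and without uninjured replicate 1 or 1 day replicate 3, and SLC24A4 by 0.30 and 0.24 at 1 and 7 days (SE 0.08), the latter lost without uninjured replicate 2 or 7 day replicate 3. SLC24A4 is among the 24 dim genes, at 3.72 to 4.20 on all arrays. Of the 3 genes named after a carrier, SLC7A6OS fell at 1 and 3 days (-0.50 and -0.32, SE 0.10), the latter lost without uninjured replicate 3 (adjusted p = 0.0793) or 3 day replicate 1 (adjusted p = 0.0593). SLC2A4RG and SLC4A1AP were not called.

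With ivermectin the carriers, like all probe sets, lay close to uninjured cord. Against 1 day without drug, 45 of the 157 rose and 44 fell (28.7% and 28%, against 29.6% and 25.4% of all probe sets). Against uninjured cord, 3 rose and 12 fell (1.91% and 7.64%, against 3.02% and 3.93%). The larger share of falls among the carriers was not tested. None of the 15 changed by 1 or more on the log2 scale, where 0.16% of all probe sets did. The 2 comparisons share the ivermectin arrays. The poly-A control differed by -0.65 between ivermectin and 1 day arrays and by -0.10 between ivermectin and uninjured arrays, and its part was not tested.

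Against 1 day without drug, the largest fall was that of SLC22A3 (-1.75 ± 0.08; adjusted p = 5.1e-11), at 4.33 to 4.61 with the drug and 6.11 to 6.30 without. SLC10A4 followed (-1.46 ± 0.07), then SLC7A10 (-1.35 ± 0.08) and SLC7A3 (-1.34 ± 0.04), SLC25A33 (-1.21 ± 0.06) and SLC30A1 (-1.06 ± 0.05). The largest rises were those of SLC39A7 (1.13 ± 0.04; adjusted p = 8.76e-12) and SLC25A32 (1.13 ± 0.15), then SLC10A7 (1.09 ± 0.06). The second probe set of SLC39A7 rose as well (1.62 ± 0.06). In the nucleotide sugar class 11 of 17 rose and 0 fell, where 29.6% and 25.4% of all probe sets did, with SLC35A2 at 0.86 ± 0.11 and SLC35A3 at 0.84 ± 0.08. Carboxylate carriers had 7 falls of 10, among them SLC16A1 (-0.94 ± 0.04) and SLC16A6 (-0.88 ± 0.06). Neither class count was tested against the share over all probe sets. Both share the 1 day arrays with the class counts at 1 day against uninjured cord and are not independent of them. Against uninjured cord, 1 of the 17 rose and 0 fell with ivermectin, and 0 of the 10 rose and 3 fell. Of all probe sets, 3.02% rose and 3.93% fell there. For ivermectin against 1 day, the second probe set of SLC16A1 rose by 0.36, so its 2 probe sets disagree. The other 3 of SLC16A6 read -0.35, -0.27 and -0.06.

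The 12 carriers that fell with ivermectin against uninjured cord were led by SLC38A2 (-0.72 ± 0.09; adjusted p = 9.1e-05), SLC7A3 (-0.59 ± 0.04; adjusted p = 3.46e-07) and SLC16A1 (-0.58 ± 0.04; adjusted p = 9.29e-07). In each of them every ivermectin array lay below every uninjured array. SLC3A2 was also lower, at 11.37 to 11.42 against 11.64 to 11.65 (-0.25 ± 0.04; adjusted p = 0.00238). SLC25A33 (-0.28), SLC16A6 (-0.26), SLC10A3 (-0.22), SLC16A9 (-0.21), SLC20A1 (-0.19) and SLC30A1 (-0.19) each lost the call in at least 1 alternative. The second probe set of SLC16A1 read 0.23 and was not called, and that of SLC25A33 read 0.03. SLC11A1 (-0.35) and SLC25A21 (-0.33), named after their values were seen, complete the count. The 3 that rose were SLC25A29 (0.31 ± 0.06), SLC25A46 (0.28 ± 0.06) and SLC35F4 (0.26), the last a dim gene named after its values were seen. These small calls are the least stable: fitted on the arrays of the 2 groups alone, 0 rose and 7 fell, and the falls numbered 7 without uninjured replicate 2, 6 without uninjured replicate 3 and 7 without ivermectin replicate 3.

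Genes outside the set are given for their counts. Of 29 SLC genes left out by the rule, 9 rose and 3 fell at 1 day, 7 rose and 4 fell at 3 days and 7 rose and 7 fell at 7 days. Of 20 measured genes with symbols of the ATP-binding cassette family, 8 rose and 4 fell at 1 day. At 3 days 10 rose and 2 fell, and at 7 days 10 rose and 5 fell. The family was taken by symbol and includes ABCE1, ABCF1, ABCF2 and ABCF3, which are not membrane transporters. Of all probe sets, 25.1%, 29.8% and 28.8% rose and 28.8%, 30.2% and 28.9% fell at these times. The difference of the left-out SLC genes and the ATP-binding cassette genes from these shares or from the 157 carriers was not tested. Among the carriers with more than 1 probe set, a second probe set was called the opposite way for SLC16A6, SLC43A1 and SLC43A3 at 1 day and for SLC38A9, SLC43A1 and SLC43A3 at 3 days, the last 3 genes being named after their values were seen. At 7 days this held for 0 genes, and for ivermectin against 1 day it held for SLC16A1 and SLC43A3. Of 16 such genes called at 1 day, another probe set was called the same way for 6, as it was for 9 of 16 at 3 days, 8 of 14 at 7 days and 6 of 15 for ivermectin against 1 day.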

How the data were processed

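Total RNA from axolotl spinal cord was extracted with Trizol and biotin-labelled, per the labels, and hybridized to 15 Affymetrix arrays. Per the submitters' processing notes, the authors ran RMA with Affymetrix Expression Console. The deposited file gives 1 log2 value for each probe set on each array. A joint normalization of the arrays is not given in the sources used here. Values were used as deposited. Control probe sets (45) were set aside. Gene symbols came from the platform annotation; positions and sequences were not used here.

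Group means were estimated together in limma 3.58.1 (lmFit and eBayes on the 15 arrays; R 4.3.3; 10 residual and 4.26 prior degrees of freedom), tested 2-sided in 7 comparisons with Benjamini-Hochberg adjustment over 20035 probe sets. Same-numbered arrays did not deviate together (30 pairs, median correlation -0.0062, range -0.225 to 0.231), so numbers were not used as a block. The p-values reflect variation among pools of animals only, and precision is limited by having 3 arrays in a group. The code was tested on simulated data.

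Transport classes follow the family number, so a class name need not hold for each of its genes. Some carriers of other substrates stand with the sugars, and other classes can hold such genes too. The members, lists and naming rule were chosen with earlier results of these data known. Named genes are, in each of 4 comparisons (1, 3 and 7 days against uninjured, ivermectin against 1 day), the 8 largest rises and the 8 largest falls without overlap between arrays, per class the brightest gene and up to 4 with the widest range of group means, and 14 fixed genes where measured. Lists are described by counts, medians and summed levels.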

Additional observations from a re-analysis of the deposited data

Results flagged for a closer look

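For 16 differences between times, a carrier was called above uninjured cord at 1 time and below it at the next tested time, or the reverse, and the difference between the times was itself past the threshold in limma. Of these, 11 lie between 1 and 3 days and 5 between 3 and 7 days. Opposite calls against the same uninjured arrays make a call between the times all but certain. That condition removed no gene and adds no separate support. The share of such crossings over all probe sets was not computed. From 1 to 3 days the difference was -2.39 for SLC7A3, -1.96 for SLC38A2, -1.82 for SLC25A33, -1.68 for SLC16A6, -1.52 for SLC20A1, -1.33 for SLC30A1, -0.68 for SLC11A1, -0.53 for SLC16A7, -0.50 for SLC30A2 and -0.47 for SLC16A1, all from above uninjured cord to below it. The crossing is uncertain for SLC16A1, whose fall at 3 days lost its call in 9 alternatives (with median centring -0.05; adjusted p = 0.382). The 1 day rises of SLC16A1 and SLC16A6 were not called when probe sets were averaged (adjusted p = 0.0588 and 0.188), nor that of SLC38A2 without uninjured replicate 1 (adjusted p = 0.0597). The difference was 0.32 for SLC25A12, from below to above. From 3 to 7 days it was -1.25 for SLC25A37, -0.57 for SLC39A6, -0.54 for SLC25A12 and -0.49 for SLC25A28, from above to below, and 1.10 for SLC7A8, from below to above. SLC7A8, which carries large neutral amino acids, read 5.43 to 5.85 at 3 days, 5.86 to 6.29 in uninjured cord and 6.56 to 6.76 at 7 days. SLC11A1, SLC16A7, SLC30A2, SLC25A12, SLC25A28, SLC39A6 and SLC7A8 were named after their values were seen.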

How the results depend on the processing

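No followed change of a carrier named by the rule changed direction in any alternative. Carriers named only after their values were seen were not followed. Of 275 changes of named carriers, 236 kept their call in every alternative that covered them and added no threshold on size. The other 39 lost it in at least 1, of which 36 lost it when 1 array was left out. The fit without the lowest 25% of probe sets covered 260 of the 275, since it left out dim genes. With a log2 change of at least 1 required as well, 70 of the 275 kept their call and 205 did not, and the counts that rose and fell were 5 and 2 at 1 day, 13 and 7 at 3 days, 9 and 9 at 7 days, 3 and 6 for ivermectin against 1 day, 0 and 0 for ivermectin against uninjured, 5 and 6 from 1 to 3 days, and 1 and 5 from 3 to 7 days. At that size, 5.73% of the carriers against 7.8% of all probe sets were called for ivermectin against 1 day. The shares were 0% against 0.16% for ivermectin against uninjured, 7.01% against 3.93% from 1 to 3 days, and 3.82% against 2% from 3 to 7 days. These gaps were not tested. For ivermectin against uninjured, the arrays of the 2 groups alone gave 0 rises and 7 falls, and an intensity trend of the prior variance gave 5 rises. Leaving out 1 array at a time gave 6 to 12 falls there. It gave 40 to 42 rises and 35 to 39 falls at 1 day, 45 to 52 and 43 to 48 at 3 days, and 38 to 44 and 51 to 55 at 7 days. With the replicate number as a block, 42 rose and 39 fell at 1 day, 51 and 46 at 3 days, 42 and 54 at 7 days, and 45 and 45 for ivermectin against 1 day. Median centring gave 62 rises and 42 falls at 3 days and 48 and 34 at 1 day. Shares of all probe sets were not computed for the alternatives without a size threshold. Signal over background limits the 24 carriers that read below the first quartile on all arrays.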
